A study of Mus musculus with 6 samples.

Results

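Pancreatic beta cells lacking FoxO1 were compared between 12-month-old mice that had carried 3 pregnancies and nulliparous mice of the same age and genotype, with 1 RNA-seq library on each side. Genes entered the comparison when they had a single locus in the deposited table, a value above 0 in both libraries and at least 5 FPKM in at least 1 of them. FPKM is a fragment count scaled for transcript length and for library total. Of 23087 genes at 1 locus, in a table of 23845 rows, 8209 met this rule. For each gene the log2 ratio of FPKM + 1 was formed, multiparous over nulliparous, so that a positive value marks a higher level in the multiparous library.

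All mice were female and of mixed 129J-C57BL/6 background. The IKO mice (RIP-Cre/FoxO1 floxed) joined a floxed FoxO1 gene to a Cre transgene under the rat insulin promoter, and the WT mice were their comparison. Whether the WT mice carried floxed alleles or Cre is not given in the sources used here. The 6 groups were nulliparous WT and IKO mice at 3 months, nulliparous WT and IKO mice at 12 months, and multiparous WT and IKO mice at 12 months, all on standard chow. The multiparous libraries bear the labels NGT (WT) and DM (IKO). Between the IKO libraries, parity and whatever DM marks cannot be told apart. The rat insulin promoter is known to drive Cre in some neurons of the hypothalamus as well as in beta cells. The number of animals behind a library and any batch are not given in the sources used here. With 1 library per group no difference below has a replicate or a p-value, and "higher" and "lower" describe this pair of libraries.

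Pregnancy raises the demand for insulin, and beta cells answer placental lactogens through the prolactin receptor. FoxO1 is a transcription factor held in the cytoplasm by insulin signalling, and it is known to help beta cells keep their identity under metabolic stress. A secretory cell under load also engages the unfolded protein response, whose ATF6 and IRE1-XBP1 arms raise chaperones of the endoplasmic reticulum (ER) and whose PERK-ATF4 arm raises amino acid synthesis and transport genes. Hypoxia-inducible factors (HIF) raise glycolytic enzymes, several of which a mature beta cell keeps low.

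Foxo1 (chromosome 3, 52268337 to 52350109, mm10) followed the genotype labels, at 0.656 FPKM in the multiparous IKO library, 0.41 in the nulliparous 12-month IKO library and 0.41 in the 3-month IKO library. The WT libraries held 5.67 FPKM at 3 months, 7.62 at 12 months nulliparous and 8.93 multiparous. Of the markers that define a beta cell, Ins1, Ins2 and Iapp were listed at 0 in all 6 libraries, which an estimate that failed would also give. The other 33 of 36 beta cell identity genes were compared, among them the granule protein Chga at 4331 FPKM in multiparous IKO and the factor Pdx1 at 56.0. Read counts were not used here. The spacing of the lowest FPKM values, where 1 fragment makes 1 step, put the depth of the multiparous IKO library at 1.14 times that of the nulliparous IKO library, and the other 4 libraries lay between 0.923 and 1.23 times. The nulliparous 12-month WT library differed most from its partner, with a median absolute log2 ratio of 0.303 in the WT parity pair, against 0.104 in the IKO parity pair and 0.0497 between the 3-month libraries.

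Markers of other pancreatic cells were low or differed in both directions. The 26 acinar markers, digestive enzymes of the exocrine pancreas, summed to 6.74 FPKM in the multiparous and 44.1 in the nulliparous IKO library, and Prss1 and Ptf1a were listed at 0 in both. Among the other libraries the acinar sum was 12.7 in 3-month WT, 22.7 in 3-month IKO, 110.1 in nulliparous 12-month WT and 9.75 in multiparous WT. The 14 alpha cell markers summed to 448 FPKM in the multiparous and 670 in the nulliparous IKO library, and the 8 delta, PP and epsilon markers to 769 and 563. The 9 ductal markers summed to 601 and 483, and to 489 to 576 in the other libraries. Of these, Krt7 was at 312 FPKM against 311 and Spp1 at 274 against 158. The 10 endothelial markers summed to 4.66 and 4.57, and the 14 of 15 immune markers at 1 locus to 20.7 and 22.7. The part these cells take in the results below was not tested. In bulk RNA, fewer cells of a type and less RNA per cell cannot be told apart.

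Repeated pregnancy went with few large differences. In the multiparous library 17 genes were at least 2-fold higher on the FPKM + 1 scale used throughout for calls, 0.207% of all genes compared, and 23 were at least 2-fold lower, 0.28%. At 1.5-fold the numbers were 90 (1.1%) and 84 (1.02%). The 2-fold counts depend on the rule for low values, being 32 and 38 with a floor of 1 FPKM and 8 and 11 with a pseudocount of 5. Between the IKO and WT libraries at 3 months, the closest of the pairs compared, 4 of 8114 genes (0.0493%) were at least 2-fold higher in IKO and 5 (0.0616%) at least 2-fold lower. The IKO log2 ratios had a median of -0.02 and an SD of 0.223 over genes. Spread did not shrink with level. The median absolute log2 ratio was 0.1002 for the 2446 genes with a maximum of 5 to 10 FPKM in the pair and 0.138 for the 473 genes at 100 FPKM or more.

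**Figure D1:**
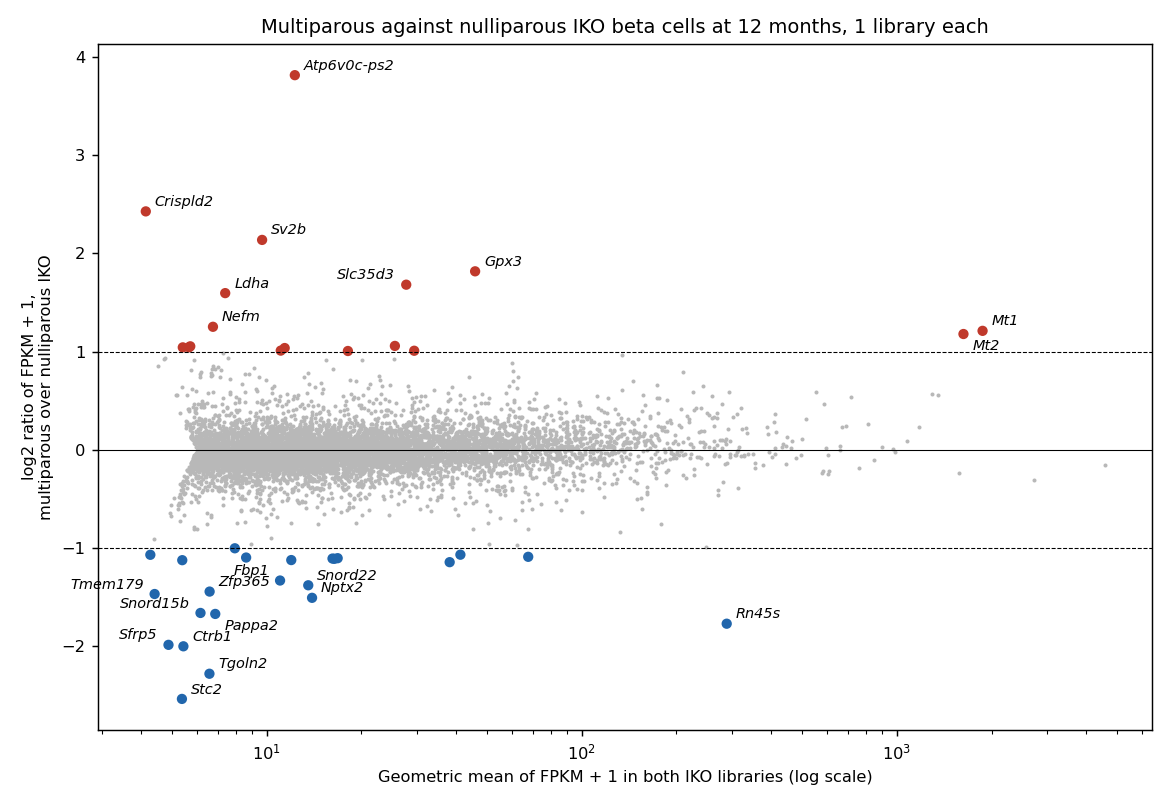
Each point is 1 of 8209 genes; the x axis gives the geometric mean of FPKM + 1 in both IKO libraries on a log scale and the y axis the log2 ratio, multiparous over nulliparous. Dashed lines mark 2-fold; 17 genes lie above them (red) and 23 below (blue), and the metallothioneins Mt1 and Mt2 and the ribosomal RNA entry Rn45s are the called genes at the highest levels.

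Genes just inside and just outside the 2-fold line had like values. Slc2a1 (1.01) and Scrt1 (1.01) were the last called higher genes, and Tnfrsf11b (0.99) and Mif (0.96) the first left out. Necab2 (-1.002) and Cox6a2 (-1.07) were the last called lower genes, and the glucagon gene Gcg (-0.99) and Ppp1r15a (-0.97) the first left out.

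Crispld2 and Sv2b had the highest ratios among genes without close copies, followed by Gpx3, described with the antioxidant genes, and Slc35d3. Crispld2 (chromosome 8, 119992470 to 120052793), a secreted protein with a cysteine-rich domain, stood at 8.60 FPKM in multiparous and 0.784 in nulliparous IKO cells, at 9.78 in multiparous WT, and at 0.406 to 0.533 in the 3 remaining libraries. Sv2b (chromosome 7, 75114895 to 75309262), a glycoprotein of synaptic vesicles and granules, reached 19.3 FPKM against 3.61, with 18.7 in multiparous WT and 3.21 to 3.58 in the other nulliparous libraries. Slc35d3 (chromosome 10, 19847917 to 19851459), a nucleotide sugar transporter family member, was at 48.7 against 14.5 FPKM, 51.0 in multiparous WT and 13.8 to 16.5 elsewhere. For Crispld2, Sv2b and Slc35d3 the multiparous libraries stood far above the 4 nulliparous ones, which lay close together at both ages and in both genotypes. The log2 ratios in IKO were 2.43, 2.14 and 1.68. Exons of Sv2b overlap those of 1500012K07Rik on the opposite strand, and whether the counting used strand is not given in the sources used here.

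The rest of the exocytosis machinery did not share the ratio of Sv2b. Of 22 compared synaptotagmins, SNARE proteins and their partners, 11 were higher and 11 lower, with a median log2 ratio of 0.00 that was below 0 in 5 of 10 other processing settings. Stx1a, the plasma membrane SNARE syntaxin 1A, was next after Sv2b, at 5.52 FPKM in multiparous and 3.94 in nulliparous IKO, and the nulliparous value was the lowest of the 6 libraries. At the other end Syt14, a synaptotagmin family member, was at 6.48 against 9.14, and Sytl4 (granuphilin), which docks insulin granules, at 78.1 against 104. Granuphilin was also at 80.4 FPKM in multiparous WT and 106 to 107 in the other nulliparous libraries, so both multiparous values lay below all 4 nulliparous ones.

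Ldha and Slc2a1 led the glycolysis genes. Ldha (chromosome 7, 46845804 to 46855627), the lactate dehydrogenase subunit that mature beta cells keep low, was at 1.46, 1.45, 1.42, 3.25, 12.2 and 11.9 FPKM in 3-month WT, 3-month IKO, nulliparous WT, nulliparous IKO, multiparous WT and multiparous IKO cells. The nulliparous 12-month IKO library was thus above the 3 other nulliparous libraries, and both multiparous libraries were higher still (log2 ratio 1.60 in the IKO pair). Slc2a1 (chromosome 4, 119108745 to 119137329), the glucose transporter GLUT1, was at 24.7 FPKM against 11.8, with 26.2 in multiparous WT and 10.5 to 13.4 in the others. Of 16 compared glycolysis genes 13 were higher, where 45.3% of all genes were. Past 1.5-fold higher were 6, where 1.1% of all genes were. The median was 0.55. In 12 of the 16 both multiparous libraries exceeded all 4 nulliparous ones, against 12.7% of all genes. The exceptions were Eno2, Pklr, Eno3 and the muscle phosphofructokinase Pfkm, which had log2 ratios of 0.05, -0.02, -0.02 and -0.22. The liver form Pfkl was at 47.3 FPKM against 30.0 and the platelet form Pfkp at 35.0 against 23.8, so the 3 phosphofructokinase genes did not all differ in 1 direction. Ldhb, the heart lactate dehydrogenase subunit, stayed under the 5 FPKM floor at 4.31 and 4.47.

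Hypoxia-response genes outside glycolysis showed a similar pattern. Among 15 compared HIF targets 13 were higher, where 45.3% of all genes were, with a median log2 ratio of 0.52. The 6 oxygen sensors and HIF subunits were split 3 and 3 with a median of 0.00. Fam162a, a mitochondrial protein induced by hypoxia, was at 79.2 FPKM in multiparous and 45.0 in nulliparous IKO cells, 82.7 in multiparous WT and 34.4 to 38.1 in the rest. Bnip3, a mitophagy receptor, was at 80.1 against 47.5, and the pyruvate dehydrogenase kinase gene Pdk1 at 10.5 against 6.60. Both multiparous libraries lay above the 4 nulliparous ones for each of these. Ndrg1, also a HIF target, was lower, at 57.0 against 74.7 FPKM and the lowest of 6, and Vegfa was nearly level at 209 and 215. Hif1a itself was at 23.9 against 22.1. Over the full list of 33 genes, 21 were compared, with a median of 0.21 (0.36 with a floor of 1 FPKM and 0.43 with a floor of 10 FPKM). In 14 of the 21 both multiparous libraries lay above all 4 nulliparous ones, against 12.7% of all genes. The members under the floor named next were all higher and were chosen after their values were seen. The directions of the other members left out are not given here. Adm, the vasodilator peptide adrenomedullin, was at 2.23 FPKM against 0.503 with 2.31 in multiparous WT. Slc16a3, the lactate exporter MCT4, was at 2.04 against 0.602, and the mitochondrial adenylate kinase Ak4 at 2.93 against 0.925.

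The promoters of Slc2a1 and Ldha are shown because they led the glycolysis list and each holds the core of the HIF response element. The core was searched as ACGTG on both strands in the 250 bases before the start of each gene (RefSeq, GRCm38.p6), and matches are in capitals here and in the windows of the other genes. It occurred in 16.6% of 32851 promoter windows and in 18.5% of 27025 genes by any of their windows, in 7 of the 16 glycolysis genes, all of which had a window, and in 10 of the 17 hypoxia genes of 21 that had one. The hypoxia genes with the core had a median log2 ratio of 0.49 and the 7 without it 0.02, while the glycolysis genes with and without it had 0.61 and 0.54. Most of those 7 were sensors or HIF subunits, namely Arnt (0.03), Arnt2 (-0.28), Hif1an (-0.03) and Vhl (-0.10). The HIF targets without the core were Kdm3a (0.21), Pdk1 (0.60) and Plod1 (0.02). Of the sensors and subunits, Hif1a (0.11) and Egln2 (0.05) held it. The hypoxia medians thus do not compare HIF targets alone. The windows lie at chr4:119108495-119108744 (plus strand) and chr7:46845554-46845803 (plus strand, the first of 2 windows of that gene). The palindrome CACGTG holds the core on both strands, so Ldha counts 5 matches. A match is a description of these letters and not a binding site, and the motifs searched here can overlap at their ends.
Slc2a1: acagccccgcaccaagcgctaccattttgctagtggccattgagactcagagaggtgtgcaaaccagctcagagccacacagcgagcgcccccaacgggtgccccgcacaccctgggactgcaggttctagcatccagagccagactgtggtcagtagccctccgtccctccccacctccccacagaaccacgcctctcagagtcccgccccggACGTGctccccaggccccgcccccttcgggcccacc
Ldha: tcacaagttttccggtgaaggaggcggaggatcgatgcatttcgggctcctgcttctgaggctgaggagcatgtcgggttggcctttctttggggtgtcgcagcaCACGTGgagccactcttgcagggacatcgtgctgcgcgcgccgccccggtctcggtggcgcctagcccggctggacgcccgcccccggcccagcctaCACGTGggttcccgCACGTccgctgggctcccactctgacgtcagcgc

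Mt1 and Mt2 were the most abundant called genes. These metallothioneins are small cysteine-rich proteins that buffer zinc, which beta cells store with insulin. Mt1 (chromosome 8, 94179089 to 94180327) was at 2849 FPKM in multiparous and 1229.7 in nulliparous IKO cells, at 2906 in multiparous WT, at 2115 in nulliparous 12-month WT and at 1147 to 1281 at 3 months. Mt2 (chromosome 8, 94172618 to 94173567) was at 2450.2 against 1081 FPKM, with 2588 in multiparous WT and 1068 to 1135 in the others. Both genes were higher in both multiparous libraries than in any nulliparous one, and of the pair Mt1 alone was also high in the nulliparous 12-month WT library. An exon of Mt2 overlaps Gm45774 on the opposite strand. Mt3 was lower, at 13.6 against 15.9. Of 16 zinc transporters, counting the zinc sensor Mtf1, 10 were higher and 6 lower. Slc30a1, the plasma membrane zinc exporter and a known target of that sensor, was at 7.41 FPKM against 5.57, with 7.59 in multiparous WT and 4.997 to 6.33 in the other nulliparous libraries. The granule zinc transporter Slc30a8 was at the other end, at 162 against 208, and Mtf1 was at 4.998 against 6.07.

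The Mt1 and Mt2 promoters are printed because these were the most abundant called genes and both hold metal response elements. The element, searched as TGCACNC or TGCGCNC on both strands, was in 21.4% of all windows, in 23.8% of all genes and in 7 of the 16 metallothionein and zinc genes of 19 that had a window. It occurs once in the Mt1 window, 17 bases before the start, and 3 times in the Mt2 window. The windows are chr8:94178839-94179088 and chr8:94172368-94172617, both on the plus strand.
Mt1: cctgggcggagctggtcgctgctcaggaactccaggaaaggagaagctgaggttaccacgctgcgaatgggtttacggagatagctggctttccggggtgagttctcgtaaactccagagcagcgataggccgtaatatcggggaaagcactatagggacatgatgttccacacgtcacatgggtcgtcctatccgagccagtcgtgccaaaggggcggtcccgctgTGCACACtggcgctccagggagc
Mt2: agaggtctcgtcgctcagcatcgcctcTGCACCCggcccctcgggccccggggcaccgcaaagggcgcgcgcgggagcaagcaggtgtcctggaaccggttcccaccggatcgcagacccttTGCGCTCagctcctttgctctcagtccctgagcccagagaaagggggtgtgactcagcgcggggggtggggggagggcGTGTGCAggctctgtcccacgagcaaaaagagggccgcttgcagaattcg

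Gpx3, a secreted glutathione peroxidase, stood apart from the other antioxidant genes. It was at 85.2 FPKM in multiparous and 23.5 in nulliparous IKO cells (chromosome 11, 54902854 to 54910382), at 132 in multiparous WT, 61.2 in nulliparous 12-month WT and 25.9 to 28.8 at 3 months. The nulliparous IKO value was the lowest of 6. Of 23 compared antioxidant enzymes 14 were higher and 9 lower, with a median of 0.03, or -0.02 once a trend with transcript length and GC content was taken out. Next to Gpx3 came thioredoxin, Txn1, at 71.6 against 56.4 FPKM. Gpx2, another glutathione peroxidase, was at 29.2 against 41.2 and lowest of 6, and Txnip, a thioredoxin inhibitor that glucose induces, at 14.95 against 24.4. Txnip was also lower in multiparous WT, at 10.8, than in any nulliparous library.

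**Figure D2:**
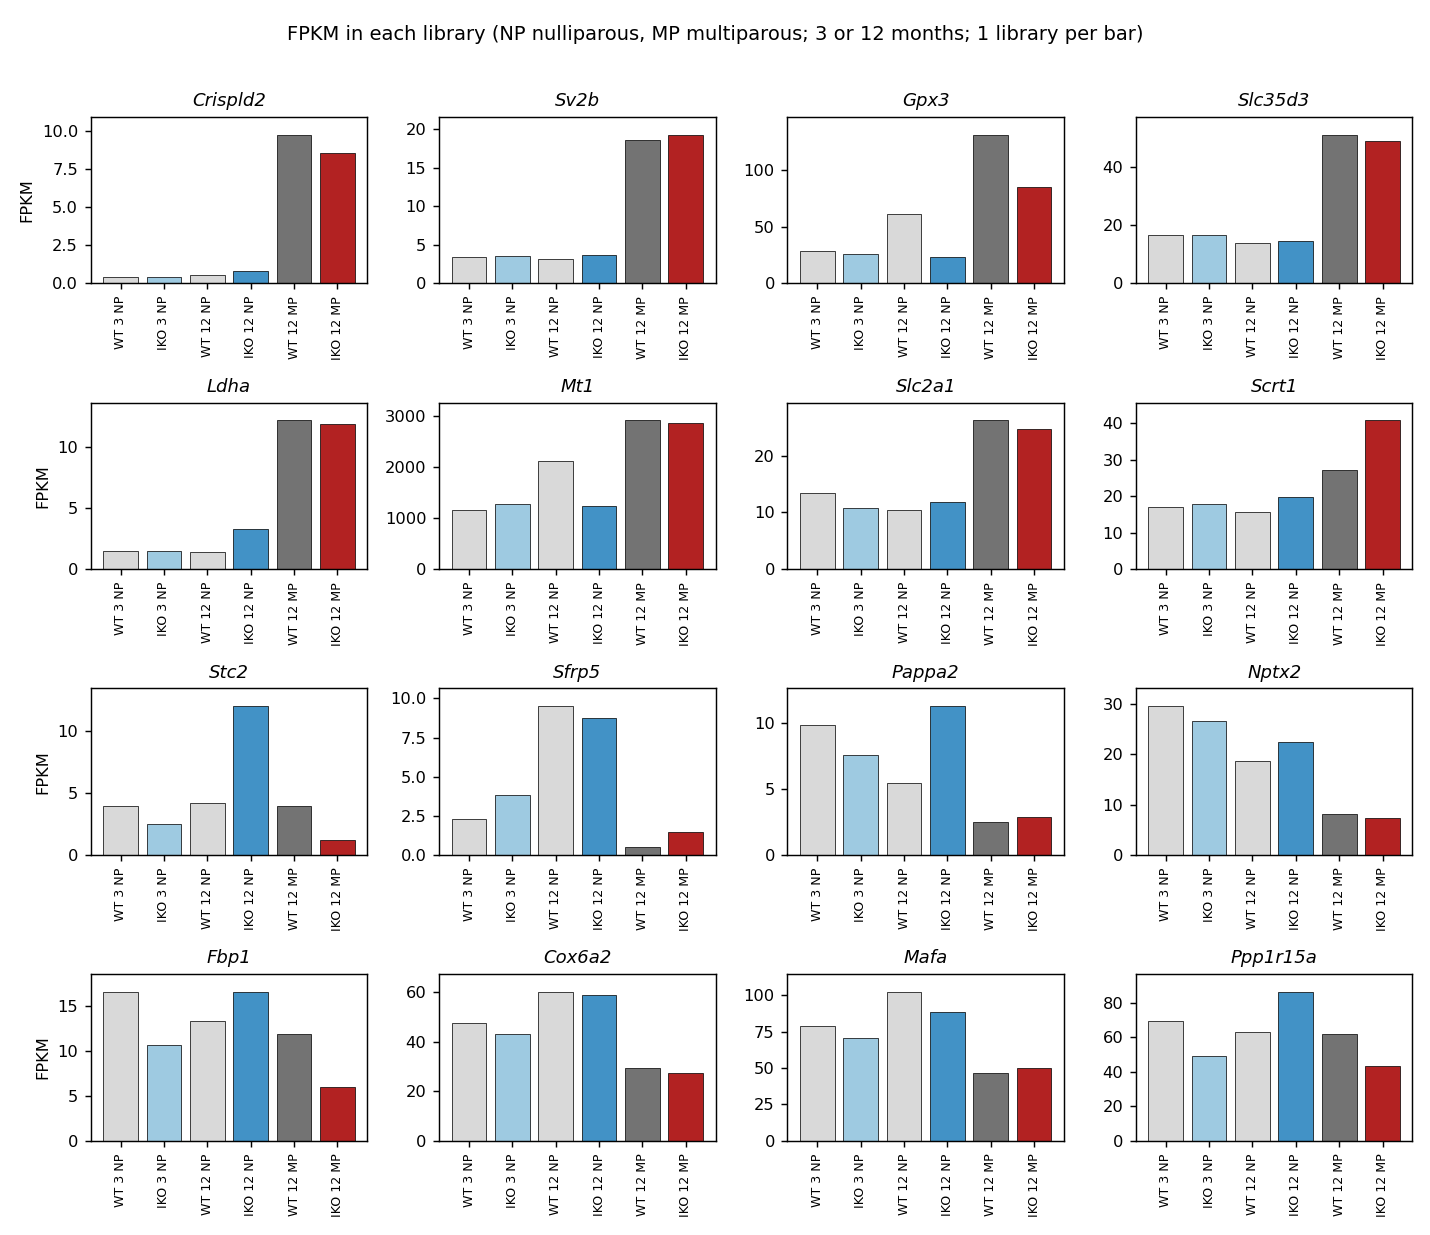
Bars give the FPKM of 16 genes in each of 6 libraries (1 library per bar, so no error bar; NP nulliparous, MP multiparous, 3 or 12 months of age), with an axis from 0 for each gene. Crispld2, Sv2b, Slc35d3, Ldha and Slc2a1 are high in both MP bars, whereas Stc2 and Ppp1r15a are highest in the 12-month NP IKO bar and lowest in the MP IKO bar.

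Genes that lactogens induce in islets contributed Gbp8 and Igfbp5. Gbp8 (chromosome 5, 105014153 to 105053561), a guanylate-binding protein, was at 7.14 FPKM against 2.95, with 9.72 in multiparous WT and 3.58 to 4.14 in the other libraries. It belongs to a family of similar genes, so its value is uncertain. Igfbp5 (chromosome 1, 72858065 to 72874865), a binding protein for insulin-like growth factors, was at 6.78 against 2.78, 4.27 in multiparous WT and 1.87 to 2.51 elsewhere. Both lay above every nulliparous library in both genotypes. Tnfrsf11b, the decoy receptor osteoprotegerin, was just under 2-fold on the FPKM + 1 scale, at 9.24 against 4.16 FPKM, and 11.8 in multiparous WT. Of 14 compared response genes 10 were higher, where 45.3% of all genes were, and 4 lower, with a median of 0.19. All 5 genes for receptors, kinases and STAT factors were below 0, where 54.7% of all genes were, with a median of -0.12. The prolactin receptor Prlr was the lowest of these 5 at 36.6 against 53.6 FPKM. Ccnd2, the cyclin of beta cell growth, was the lowest response gene, at 68.4 against 105 with 74.0 in multiparous WT. Tph1 and Tph2, the serotonin enzymes known to be induced in pregnant islets, were at 0.0702 against 0.00943 and 0.909 against 0.702 FPKM, under the floor.

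Other genes called higher were 4 of varied role. Nefm (chromosome 14, 68119545 to 68125004), a neurofilament subunit, was at 9.43 FPKM against 3.38, but the remaining libraries ran from 2.12 in 3-month WT to 6.70 in multiparous WT. Nostrin (chromosome 2, 69135800 to 69189329), a trafficking adaptor of nitric oxide synthase, was at 7.25 against 2.97, 5.76 in multiparous WT and 2.08 to 5.47 elsewhere. For Nefm and Nostrin the multiparous libraries were the highest, yet the gap to the nearest nulliparous library was small. St14 (chromosome 9, 31088590 to 31131799), the membrane serine protease matriptase, was at 15.4 against 6.97, with 15.2 in multiparous WT and 7.84 to 10.9 in the others. Scrt1 (chromosome 15, 76516203 to 76522129), a zinc finger repressor of endocrine and neuronal cells, was at 40.7 against 19.7 and the highest of 6, with 27.2 in multiparous WT and 15.7 to 17.8 in the other nulliparous libraries. Scrt1 thus separated multiparous from nulliparous libraries in both genotypes.

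Stc2 and Pappa2 had the largest differences downward among genes without close copies or exocrine origin, together with Sfrp5. Pappa2 is a protease that frees insulin-like growth factors from their binding proteins, and stanniocalcins such as Stc2 are known to inhibit proteases of this family. Stc2 (chromosome 11, 31359441 to 31370061) was at 3.94, 2.46, 4.19, 12.0, 3.93 and 1.24 FPKM in 3-month WT, 3-month IKO, nulliparous WT, nulliparous IKO, multiparous WT and multiparous IKO cells. It was therefore highest of 6 in the nulliparous IKO library and lowest in the multiparous IKO library, while the 4 others lay between (log2 ratio -2.54 in IKO and -0.07 in WT). Pappa2 (chromosome 1, 158711731 to 158957438) was at 2.85 against 11.3 FPKM, with 2.46 in multiparous WT and 5.43 to 9.82 in the other nulliparous libraries, so both multiparous values were under all nulliparous ones. Of 17 compared genes of insulin-like growth factor signalling 15 were lower, where 54.7% of all genes were, with a median of -0.11. In the WT pair 13 of the 17 were higher with a median of 0.37, and 12 were higher with a median of 0.07 with 3-month WT on the nulliparous side. The receptors Igf1r and Insrr were at 38.7 against 45.4 and 51.7 against 67.9 FPKM, and Igfbp5, described above, was the highest member.

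Sfrp5 (chromosome 19, 42197971 to 42202252), a secreted inhibitor of Wnt ligands, was at 1.45 FPKM in multiparous and 8.72 in nulliparous IKO cells. It was at 0.505 in multiparous WT, 9.49 in nulliparous 12-month WT, and 2.32 and 3.85 at 3 months in WT and IKO. The gene was thus highest in both older nulliparous libraries and lowest in both multiparous ones, with the young libraries between. The ligand Wnt4 was at 30.3 against 40.5 FPKM with 23.8 in multiparous WT, again below the 35.0 to 52.7 of the other nulliparous libraries. Of the 7 Wnt genes compared, 6 were lower, where 54.7% of all genes were, with a median of -0.10.

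Nptx2 (chromosome 5, 144545887 to 144557478), a secreted neuronal pentraxin, was at 7.27 against 22.5 FPKM, 8.05 in multiparous WT and 18.7 to 29.6 in the other nulliparous libraries. Its receptor Nptxr was at 4.605 against 6.44. Both genes were lower in both multiparous libraries than in any nulliparous one. Necab2 (chromosome 8, 119446719 to 119472635), a neuronal calcium-binding protein, was at 4.604 against 10.2, with 2.83 in multiparous WT and 5.34 to 7.05 elsewhere, and shared that separation. The neuropeptide gene Npy was at 8.25 against 14.5, the lowest of 6.

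Metabolic and mitochondrial genes made up a further part of the lower set. Fbp1 (chromosome 13, 62864753 to 62888282), the gluconeogenic fructose bisphosphatase, was at 16.5, 10.7, 13.3, 16.5, 11.8 and 5.96 FPKM in 3-month WT, 3-month IKO, nulliparous WT, nulliparous IKO, multiparous WT and multiparous IKO cells. It was low in the multiparous IKO library alone, since multiparous WT lay within the range of the nulliparous libraries. The other genes of gluconeogenesis and anaplerosis were split, with 9 of 18 lower in all and Pck2, the mitochondrial phosphoenolpyruvate carboxykinase, next at 57.0 against 78.2. Cox6a2 (chromosome 7, 128205435 to 128206366), a muscle-type subunit of cytochrome oxidase, was at 27.5 against 58.7 FPKM, 29.2 in multiparous WT and 43.0 to 60.0 in the other nulliparous libraries. Both multiparous libraries lay below all nulliparous ones for Cox6a2, whose exon overlaps Itgad on the opposite strand. The respiratory chain list, which does not hold Cox6a2, had 42 of 73 compared genes higher and 31 lower, none past 1.5-fold, with a median of 0.03, or -0.03 once a trend with length and GC content was taken out.

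Lars2 (chromosome 9, 123366940 to 123462664), the mitochondrial leucyl-tRNA synthetase, was at 24.6 FPKM in multiparous and 55.7 in nulliparous IKO cells. It was at 55.4 in nulliparous 12-month WT, 29.3 in multiparous WT and 29.3 to 31.3 at 3 months. Rn45s (chromosome 17, 39842997 to 39848829), the ribosomal RNA precursor, was at 155 against 532 FPKM, with 440.1 in nulliparous 12-month WT, 169.7 in multiparous WT and 150.1 to 167 at 3 months. For both, the older nulliparous libraries stood above the other 4. Rn45s has many copies in the genome and poly-A selection is meant to remove it, so its level is uncertain. The part of ribosomal RNA in the other results, the Lars2 value among them, was not tested. Star (chromosome 8, 25808513 to 25815982), which carries cholesterol into mitochondria, was at 4.89 against 11.6, but ran from 6.07 in nulliparous WT to 15.05 in 3-month WT, so the groups overlap.

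The lower calls also held signalling and structural genes. Iqgap2 (chromosome 13, 95627177 to 95891922), a scaffold of the cytoskeleton, was at 7.12 FPKM against 16.7 and at 7.15 to 11.4 in the 4 other libraries. Wwc1 (chromosome 11, 35839178 to 35980089), the Hippo pathway protein KIBRA, was at 2.66 against 6.97 and 2.64 to 4.44 in the others. Zfp365 (chromosome 10, 67886105 to 67912662), a zinc finger gene, was at 3.00 against 9.88 and 5.68 to 7.31 in the rest. In each of these 3 the nulliparous IKO library was highest of 6, and the multiparous WT library was slightly above the nulliparous 12-month WT library. Tmem179 (chromosome 12, 112500184 to 112511160), a transmembrane protein, was at 1.65 against 6.34 and 3.17 to 4.11. Rtkn2 (chromosome 10, 67979598 to 68043864), a rhotekin family member, was at 1.95 against 5.19 and 3.86 to 5.79, and it shares exonic bases with Gm16212 on the opposite strand. Ugt2b34 (chromosome 5, 86889770 to 86906937), a glucuronosyltransferase of a family of close copies, was at 10.2 against 23.1, 11.2 in multiparous WT, 13.8 in nulliparous 12-month WT and 42.0 to 42.1 at 3 months. Its older libraries were all below the young ones.

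Ctrb1 (chromosome 8, 111686510 to 111691010), the digestive enzyme chymotrypsinogen, was the only acinar marker of 26 that reached the floor, at 1.72 against 9.89 FPKM. It was at 29.4 in nulliparous 12-month WT, 1.98 in multiparous WT, and 2.43 and 5.09 at 3 months. Ctrb1 is itself a large part of the acinar sum given above, and the part of exocrine RNA in this value was not tested.

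The remaining calls were small RNAs, pseudogenes and genes with close copies, whose FPKM depend on how shared reads are divided. Atp6v0c-ps2 (chromosome 17, 24163865 to 24169395), a pseudogene of a proton pump subunit, was at 1.80, 5.68, 115, 2.28, 17.3 and 45.1 FPKM in the order 3-month WT and IKO, nulliparous 12-month WT and IKO, multiparous WT and IKO. Tgoln2 (chromosome 6, 72610957 to 72616748), a protein of the trans-Golgi, was at 1.99 against 13.5, near 0 in nulliparous 12-month WT and at 13.6 in multiparous WT. Neither showed an order by parity. Rps18 (chromosome 17, 33951999 to 33955641), a ribosomal protein gene with processed copies, was at 45.4 against 97.7 and 55.2 to 70.2 in the others. Tmsb15b2 (chromosome X, 136954988 to 136957979), which shares exonic bases with Tmsb15l, was at 10.5 against 23.6, and the transcript 1700084C01Rik (chromosome 1, 169928939 to 169934653) at 10.03 against 22.8. Across the other libraries they ran over 11.5 to 36.4 and 6.50 to 65.9, which encloses at least one side of the pair. Among small nucleolar RNAs, Snora70 (chromosome X, 74272492 to 74272620, in its host Rpl10) was at 35.9 against 16.7 and Snora17 (chromosome 2, 26639190 to 26639321) at 14.7 against 6.82. Snord15b (chromosome 7, 99479563 to 99479707, in Rps3) was at 2.47 against 9.97 and Snord22 (chromosome 19, 8725866 to 8725991, in Snhg1) at 7.41 against 20.9. Small RNAs below the usual fragment size are poorly measured in poly-A libraries, and these 4 are uncertain.

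ER chaperones and ATF4 target genes, both parts of the unfolded protein response, leaned in opposite directions. Of 28 compared ER chaperones, folding enzymes and response factors 24 were higher in multiparous IKO cells, where 45.3% of all genes were. Their median log2 ratio was 0.26. The multiparous IKO library was the highest of 6 for 15 of them, where this held for 13.1% of all genes. Of 26 compared ATF4 amino acid response genes 24 were lower, where 54.7% of all genes were, with a median of -0.45. The multiparous IKO library was the lowest of 6 for 11 of these genes (12.6% of all genes) and the nulliparous IKO library the highest for 16 (20.1% of all genes).

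Derl3, which helps draw misfolded proteins out of the ER, led the chaperone list at 3.06, 4.05, 3.83, 4.44, 4.86 and 9.39 FPKM in 3-month WT and IKO, nulliparous 12-month WT and IKO, and multiparous WT and IKO cells. The multiparous IKO value stood well above the next highest, that of multiparous WT. Sdf2l1, an ER chaperone partner, was at 217 against 137 FPKM, with 163 in multiparous WT and 139 to 179 in the other nulliparous libraries. Edem2, which trims glycans of misfolded proteins, was at 76.7 against 49.4, and the lectin chaperone Calr at 862 against 595. The master chaperone Hspa5 (BiP) differed less, at 1273 against 1084. For 16 of the 28 genes, including Edem2, Calr and Hspa5, both multiparous libraries exceeded all 4 nulliparous ones, against 12.7% of all genes. The nulliparous 12-month WT library was high for Sdf2l1. In the WT pair 21 of the 28 were higher, with a median of 0.17, where 54.1% of all genes were. With 3-month WT on the nulliparous side 26 were higher, with a median of 0.20, where 59.3% of all genes were. The sensor genes Ern1 (IRE1) and Eif2ak3 (PERK) were at 67.3 against 48.3 and 22.96 against 19.6, and Xbp1 at 157 against 144. The members that were lower included 2 of the PERK-ATF4 arm. Ppp1r15a (GADD34), which reverses the translation block, was at 43.5 against 86.1 FPKM and 48.9 to 69.6 in the 4 other libraries, and Ddit3 (CHOP) at 132 against 168.

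Derl3 and Hspa5 promoters are printed as the top of the list and its best known member, both with the ER stress response element. It was searched as CCAAT, any 9 bases and CCACG on both strands, and its end can run into an ACGTG core. The element is rare, in 0.113% of all windows and 0.13% of all genes, and was present in 9 of the 24 chaperone genes of 28 that had a window. The 9 genes with it had a median log2 ratio of 0.26 and the 15 without it 0.31. In Derl3 the element reads on the reverse strand. The windows are chr10:75893148-75893397 and chr2:34771840-34772089, both on the plus strand.
Derl3: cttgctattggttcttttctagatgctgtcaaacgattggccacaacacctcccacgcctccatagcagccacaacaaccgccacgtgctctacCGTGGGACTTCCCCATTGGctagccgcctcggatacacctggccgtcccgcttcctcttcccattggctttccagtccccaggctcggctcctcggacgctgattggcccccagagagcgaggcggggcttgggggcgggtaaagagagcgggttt
Hspa5: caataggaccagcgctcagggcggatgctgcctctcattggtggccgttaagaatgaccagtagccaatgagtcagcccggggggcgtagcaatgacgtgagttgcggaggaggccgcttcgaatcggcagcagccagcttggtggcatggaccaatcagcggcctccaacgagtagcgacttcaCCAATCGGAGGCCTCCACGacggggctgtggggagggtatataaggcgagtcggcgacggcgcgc

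Among ATF4 targets outside Stc2, Psph, Psat1 and Mthfd2, enzymes of serine and one-carbon metabolism, were the lowest. Slc6a9 (log2 ratio -0.616) came next, followed by Shmt2 (-0.604), Chac1 (-0.602) and Phgdh (-0.590). Psph, the last enzyme of serine synthesis, was at 56.4, 48.7, 54.8, 58.7, 42.6 and 33.1 FPKM in 3-month WT and IKO, nulliparous 12-month WT and IKO, and multiparous WT and IKO cells. Psat1, the enzyme before it, was at 47.0 against 77.6 FPKM, and Phgdh, the first enzyme, at 13.9 against 21.5. Mthfd2 and Shmt2, which handle mitochondrial folate, were at 79.5 against 124 and 31.2 against 47.9. Psph, Phgdh and Shmt2 were lower in both multiparous libraries than in any nulliparous one, while Psat1 and Mthfd2 were lower still in the nulliparous 12-month WT library, at 45.1 and 78.2. Chac1, which degrades glutathione, was at 55.5 against 84.8 and 55.6 to 66.2 in the others. In all 8 members were past 1.5-fold lower, where 1.02% of all genes were. Atf4 itself was nearly level at 320.5 and 332, its spread over the other libraries being 304 to 391. Nupr1, a stress-induced nuclear protein, went the other way, at 885 against 739 with 809.8 in multiparous WT and 379 to 607 elsewhere. Between the WT libraries at 12 months, 13 of the 26 compared members were lower, where 45.9% of all genes were, with a median of 0.04. When multiparous WT was set against 3-month WT, 20 were lower, where 40.7% of all genes were, with a median of -0.10. That alternative was chosen after seeing the data. The difference between genotypes was not tested.

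Chac1 and Asns promoters are printed because each holds the composite element that C/EBP and ATF4 bind, searched as TGATGNAA on both strands. The element was in 3.45% of all windows, in 3.91% of all genes and in 7 of the 22 ATF4 response genes of 26 that had a window. The 7 genes with it had a median log2 ratio of -0.23 and the 15 without it -0.54. The Chac1 window is chr2:119350992-119351241 on the plus strand, with the element read on the reverse strand. The Asns window is chr6:7693210-7693459 on the minus strand, and Asns, asparagine synthetase, was at 156 against 186 FPKM.
Chac1: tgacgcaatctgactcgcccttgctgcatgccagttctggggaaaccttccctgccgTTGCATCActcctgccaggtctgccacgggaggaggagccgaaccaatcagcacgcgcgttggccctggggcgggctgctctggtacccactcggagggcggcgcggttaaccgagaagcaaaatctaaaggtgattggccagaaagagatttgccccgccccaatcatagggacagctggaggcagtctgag
Asns: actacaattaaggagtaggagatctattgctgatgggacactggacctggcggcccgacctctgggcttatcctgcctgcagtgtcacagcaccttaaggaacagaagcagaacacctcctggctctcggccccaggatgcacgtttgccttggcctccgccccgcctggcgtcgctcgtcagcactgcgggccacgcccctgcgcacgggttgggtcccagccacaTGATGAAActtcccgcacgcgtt

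**Figure D3:**
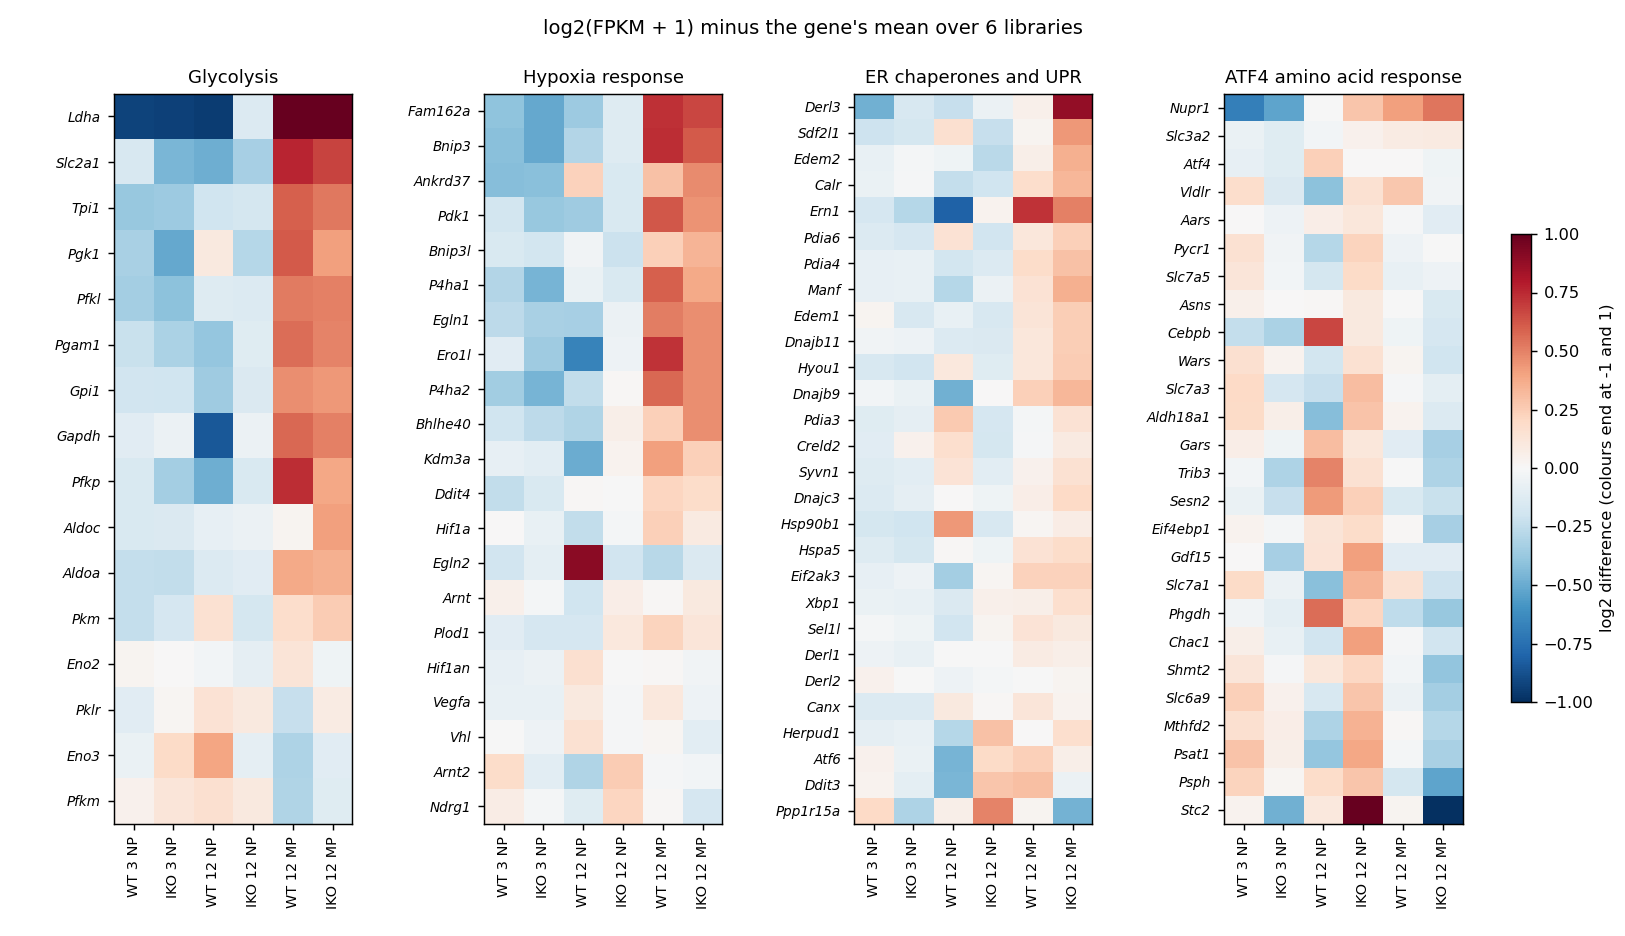
Colours give log2(FPKM + 1) minus the gene's mean over 6 libraries for the compared members of 4 lists, 1 row per gene ordered by the IKO log2 ratio and 1 column per library (NP nulliparous, MP multiparous; 3 or 12 months). Most glycolysis and hypoxia genes are red in both MP columns, and most ATF4 genes are red in the 12-month NP IKO column and blue in the MP IKO column.

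Of 33 compared beta cell identity genes 22 were lower, where 54.7% of all genes were, and 11 higher, with a median of -0.11. Past 1.5-fold were 2 of the lower genes, Mafa and Slc2a2, where 1.02% of all genes were past 1.5-fold lower. Mafa, which drives transcription of the insulin genes, stood at 50.3 FPKM in multiparous and 88.5 in nulliparous IKO cells, 46.7 in multiparous WT and 70.8 to 102 in the other nulliparous libraries. The glucose transporter Slc2a2 (GLUT2) was at 51.3 against 78.8, 37.5 in multiparous WT and 59.1 to 65.1 elsewhere, so the GLUT1 and GLUT2 genes differed in opposite directions. For 12 of the 33 both multiparous libraries lay under all 4 nulliparous ones, where 8.83% of all genes did. These included Mafa, Slc2a2, Nkx6-1 (77.6 against 95.8 FPKM) and Pdx1 (56.0 against 66.1). The factor Isl1 and the granule protein Chgb were the highest members, at 71.1 against 50.4 and 1578 against 1061, and both were highest of 6 in multiparous IKO.

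Of the genes that mark dedifferentiated beta cells, 3 were compared. Aldh1a3, a retinaldehyde dehydrogenase, was at 0.624, 2.18, 0.776, 3.31, 0.348 and 5.70 FPKM in 3-month WT and IKO, nulliparous 12-month WT and IKO, and multiparous WT and IKO cells, which made the multiparous IKO library the highest. All IKO values were above all WT values. Serpina7 was at 36.3 against 41.3 and Hes1 at 6.05 against 4.77. Gc, the vitamin D-binding protein named in the study's title and an alpha cell marker, was at 40.0 against 59.7 FPKM. It was at 17.7 in multiparous WT and 32.9 to 37.4 in the other nulliparous libraries. Gc was thus highest of 6 in the nulliparous IKO library.

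Of the 14 alpha cell markers 7 were compared and 6 of these were lower, where 54.7% of all genes were. Their median was -0.49, which came to -0.24 with a floor of 1 FPKM and -0.07 with none. Gcg was at 175 FPKM against 348, 655 in multiparous WT, 913 in nulliparous 12-month WT and 340.3 to 409.8 at 3 months, and Ttr (transthyretin) at 97.9 against 176. The multiparous IKO value of Gcg was the lowest of 6 and the multiparous WT value the second highest. The alpha cell factor Pou3f4 was listed at 0 in both IKO libraries. Gpx3, counted in this list and above among antioxidants, was the only member that was higher.

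Interferon and antigen presentation genes leaned upward in the IKO pair, with 15 of 20 higher, where 45.3% of all genes were, and a median of 0.19. In the WT pair 8 of the 20 were higher with a median of -0.11. With 3-month WT on the nulliparous side 11 were higher with a median of 0.02. Irf7, the interferon regulatory factor, was at 8.16 against 4.17 FPKM and highest of 6, with 2.35 to 5.64 in the others. Gbp6 was at 9.57 against 5.62 with 9.74 in multiparous WT, and the class I heavy chain H2-D1, one of a family of similar genes, at 313 against 213. For H2-D1 the nulliparous IKO library was the lowest of 6. It was so for 8 of the 20 members, where 11.1% of all genes had their lowest value there. In only 1 member, Gbp6, did both multiparous libraries exceed all nulliparous ones, where 12.7% of all genes did.

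Sterol and fatty acid synthesis genes gave 19 higher of 24, where 45.3% of all genes were higher, with a median of 0.11. Dhcr7, a late enzyme of cholesterol synthesis, was at 9.46 FPKM against 5.96, and Fdps, farnesyl diphosphate synthase, at 21.8 against 14.7. Multiparous IKO was the highest of 6 for 7 members, including Dhcr7, where this held for 13.1% of all genes. In the WT pair the list had a median of -0.15, and -0.19 with 3-month WT as the nulliparous side. Immediate early genes gave 9 higher of 13 with a median of 0.18 (0.04 with no floor), led by Ier3 at 28.5 against 16.6 and Jun at 27.0 against 17.9, whereas the nuclear receptor Nr4a2 was at 4.17 against 7.06. Cytosolic ribosomal protein genes had 50 higher of 72 with a median of 0.05. Fatty acid oxidation had 7 higher of 18 with -0.06, and FoxO targets 4 higher of 13 with -0.09. For these and the immediate early genes the share of all genes was again 45.3%. In the WT pair 22 of the 72, 8 of the 18 and 9 of the 13 were higher (54.1% of all genes), with medians of -0.40, -0.18 and 0.26. With 3-month WT as the nulliparous side 57, 9 and 11 were higher (59.3% of all genes), with medians of 0.10, -0.02 and 0.08.

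**Figure D4:**
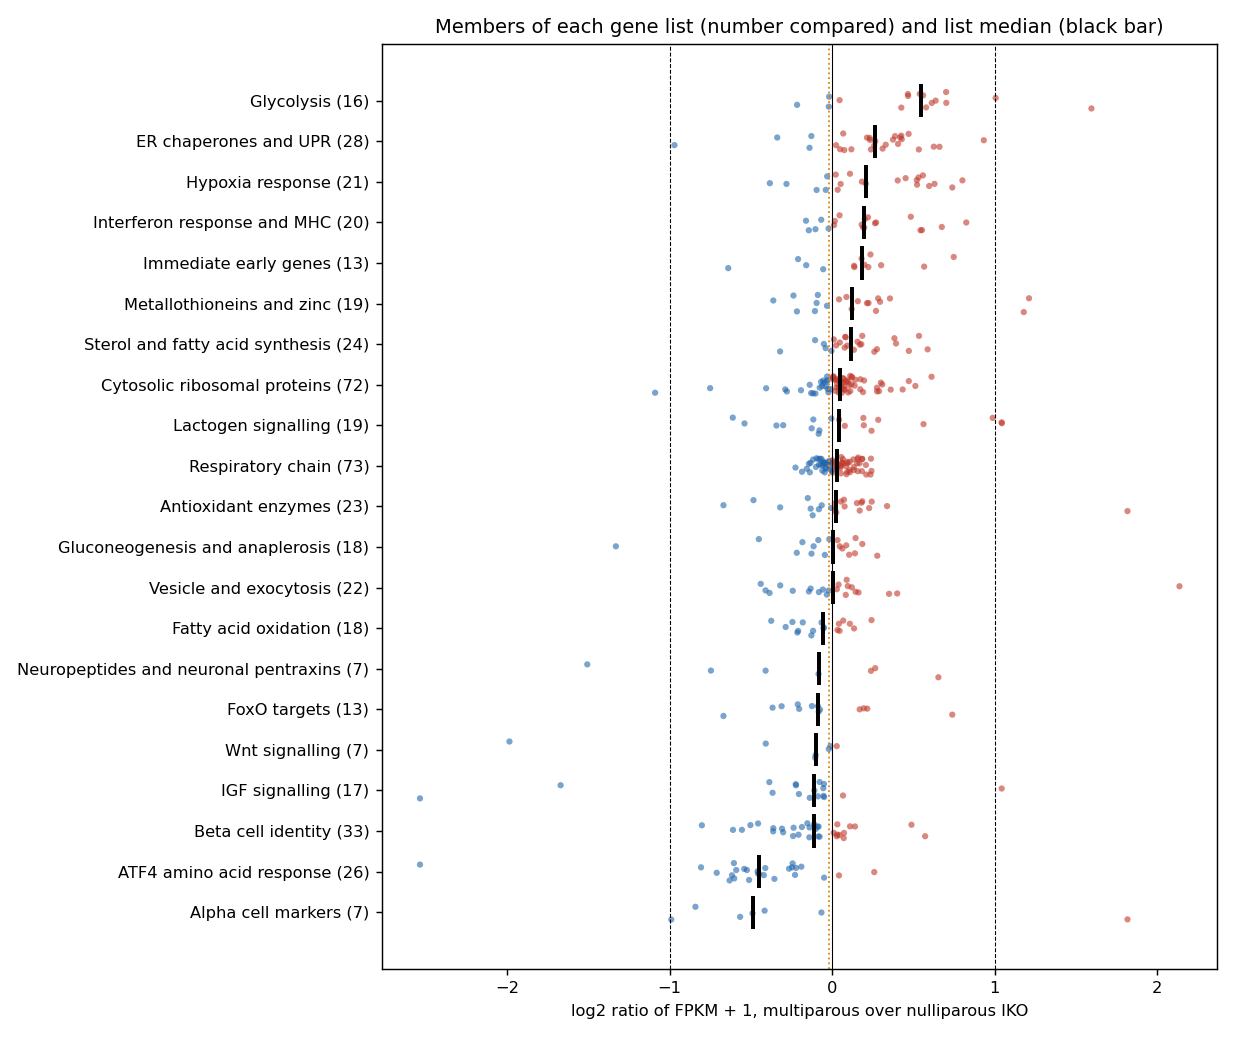
Points are the compared members of the gene lists with at least 7 of them, at their log2 ratio, multiparous over nulliparous IKO (x axis); black bars are list medians, the dotted line is the median of all 8209 genes (-0.02) and dashed lines mark 2-fold. Glycolysis lies highest with a median of 0.55, and the ATF4 response (-0.45) and alpha cell markers (-0.49) lowest.

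The WT mice offered the same parity contrast in 2 libraries that the IKO pair does not use. Of the 17 genes 2-fold higher in IKO, 16 were above 0 in the WT pair, where 54.1% of all genes were, and 9 were past 2-fold, where 1.3% of genes compared in WT were. Of the 23 genes 2-fold lower, 15 were below 0 in WT, where 45.9% of all genes were, and 7 were past 2-fold, against 3.59% in WT. With 3-month WT in place of the nulliparous 12-month WT library that stood apart, a choice made after seeing the data that adds an age difference, 15 of 17 were above 0 (59.3% of all genes) and 16 of 23 below (40.7%). Past 2-fold in both pairs were Crispld2, Sv2b, Gpx3, Slc35d3, Ldha, Mt2, Nostrin, Gbp8 and Slc2a1 upward and Sfrp5, Nptx2, Necab2, Cox6a2, Ctrb1, Snord22 and Rn45s downward. Stc2, Fbp1, Zfp365, Tmem179, Iqgap2 and Wwc1 had WT log2 ratios between -0.19 and 0.31. Whether the IKO and WT differences themselves differ was not tested, since neither pair has a replicate.

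**Figure D5:**
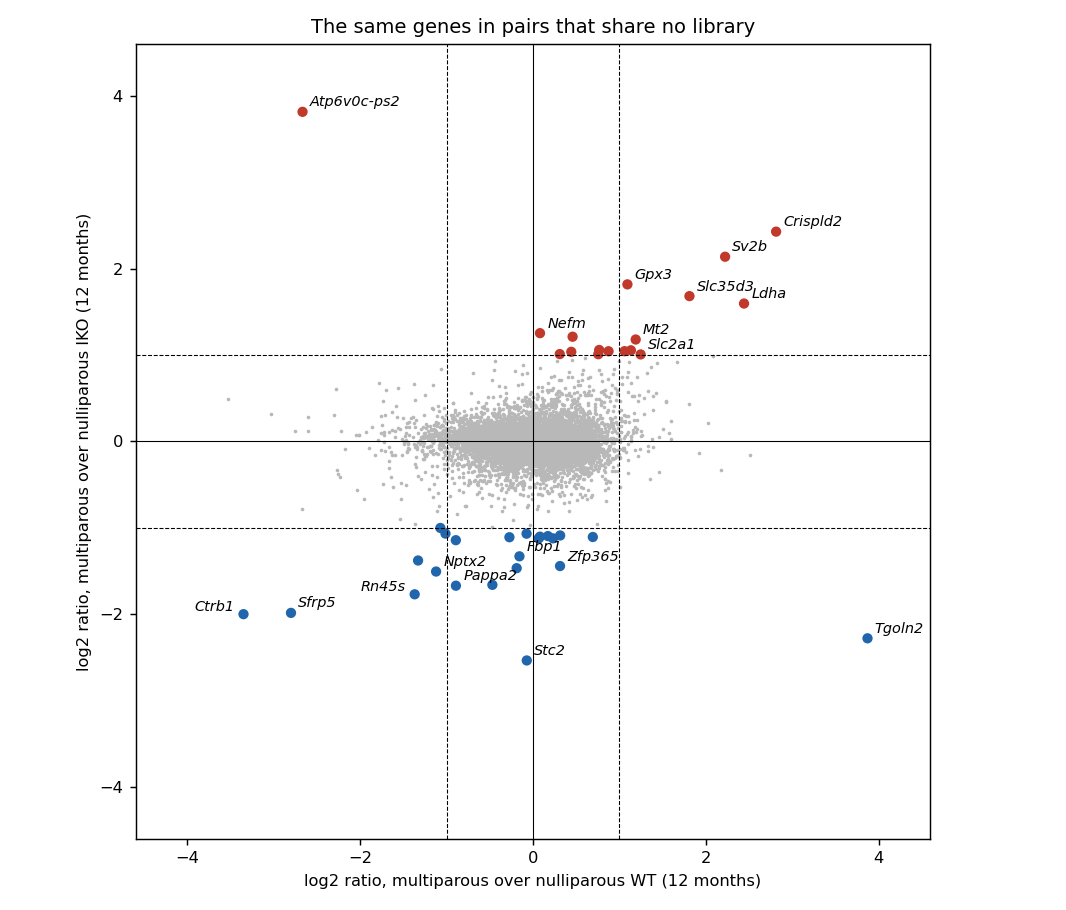
Each point is a gene compared in IKO, placed by its log2 ratio multiparous over nulliparous in WT (x axis) and IKO (y axis) at 12 months; red and blue points are the genes called in IKO and dashed lines mark 2-fold. Crispld2, Sv2b, Slc35d3 and Ldha lie high in both pairs, Sfrp5 and Ctrb1 low in both, and Stc2 is low in IKO at a WT ratio of -0.07.

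Both multiparous libraries lay above all 4 nulliparous ones for 14 of the 17 higher genes and below them for 10 of the 23 lower genes, against 12.7% and 8.83% of all genes, although the IKO pair enters both the call and this count. Several further genes under 2-fold on the FPKM + 1 scale showed the same order by parity, and those named here were chosen after their values were seen. Mif, the cytokine macrophage migration inhibitory factor, was at 187 FPKM against 95.4, with 198 in multiparous WT and 90.04 to 130.4 in the other nulliparous libraries. Spp1, the secreted phosphoprotein osteopontin and a ductal marker, was at 274 against 158, 236 and 93.8 to 226. Rps2, a ribosomal protein gene with many processed copies, was lower at 136 against 230.1 with 179 in multiparous WT. The collagen gene Col27a1 was at 5.40 against 11.4 with 5.65 in multiparous WT and 8.50 to 16.1 elsewhere.

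A further 9 genes were listed at 0 in 1 IKO library and at 5 FPKM or more in the other, and no ratio was formed for them. They were 6430548M08Rik, Cacna2d1, Hnrnpd, Mir433, Snora16a, Snora28, Snora31, Snora34 and Tpm3. Cacna2d1, a calcium channel subunit, was listed at 0 in multiparous IKO and at 17.9 to 21.5 FPKM in the other 5 libraries, a pattern that a failed estimate would give.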

How the data were processed

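Poly-A RNA of beta cells, sorted by flow cytometry from purified islets, was sequenced as directional libraries with paired ends of 100 bases, per the labels' protocols. The submitters' processing notes name TopHat, Cufflinks, Cuffdiff and the mouse build mm10, with no versions. The authors deposited FPKM per gene for 6 libraries in 1 table, 1 library for each of 6 groups. Read counts, depth, strand use in counting and the treatment of shared reads are not given in the sources used here, so no counting interval or floor of detection is given.

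The 758 rows of 260 symbols at several loci were left out, and 27 symbols altered to dates stayed as they were. From the FPKM, log2 ratios were formed with a pseudocount of 1, which understates the change of low genes. A gene was called at 2-fold on this scale. No test was run, since a group has 1 library. Relative depth came from the spacing of the lowest values.

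The genes named were every 2-fold gene, the 2 highest and 2 lowest compared members of each of 32 gene lists, and 12 genes chosen by name. Further list members, genes just outside the threshold and genes under the floor were named after their values were seen. The members and lists were chosen with earlier results of these data known. A list is described by its counts and its median beside those of all genes. Alternatives were 2 other pseudocounts, 3 other floors or none, 2 scalings, removal of the trend with transcript length and GC content, and retention of symbols at several loci. Promoter windows came from RefSeq (GRCm38.p6). The scripts were tested on simulated data and used Python 3.11.15, pandas 2.3.3, NumPy 2.4.6 and Matplotlib 3.10.9.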

Additional observations from a re-analysis of the deposited data

Results flagged for a closer look

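Of the genes past 1.5-fold in the IKO parity pair, 9 of 90 higher and 8 of 84 lower ones were past it on the opposite side in the WT pair at 12 months. Of all 8356 genes compared in that WT pair, 985 were past 1.5-fold lower and 691 past 1.5-fold higher, which are like shares. Among the opposite-side genes, the 7 that fall under the rule for named genes are given here. The difference between the genotypes was not tested, and the nulliparous 12-month WT library, which stood apart from the others, enters every WT value. The islet hormone genes Ppy and Pyy had log2 ratios of 0.59 and 0.65 in IKO and -1.70 and -1.16 in WT. The nuclear receptor gene Nr4a2 had -0.64 in IKO and 0.68 in WT, and the ribosomal protein gene Rpl36 had 0.61 in IKO and -2.28 in WT. Atp6v0c-ps2 had 3.81 in IKO and -2.67 in WT, Tgoln2 had -2.28 and 3.87, and 1700084C01Rik had -1.11 and 0.69. These last 3 and Rpl36 are a pseudogene, genes with close copies or an unnamed transcript, and their values are uncertain.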

How the results depend on the processing

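With 1 library on each side nothing separates parity from library, and values near the floor rest on few fragments. Of the 40 genes past 2-fold, 19 were past it under every one of 10 settings that compared them and 21 were not under at least 1. The counts of higher and lower genes were 8 and 11 with a pseudocount of 5, 32 and 38 with a floor of 1 FPKM or with none, and 28 and 35 with a mean of 1 FPKM over 6 libraries. The genes of these on the same side in WT were 7 and 9, 31 and 29, and 27 and 27. With other floors more or fewer genes are compared, and a pseudocount of 5 shrinks ratios by construction. Of 25 list medians, 16 moved under no setting by more than 0.113, the SD between the 3-month libraries, 10 changed sign under at least 1 setting, and no 2-fold gene changed sign under these settings. As reported, the medians were 0.21 for hypoxia, 0.04 for lactogen signalling, -0.08 for neuropeptides, 0.29 for progenitor genes, 0.18 for immediate early genes, 0.07 for the cell cycle, -0.49 for alpha cells, 0.16 for delta, PP and epsilon cells and 0.00 for ductal cells. With a floor of 1 FPKM they were 0.36 for hypoxia, 0.17 for neuropeptides, 0.0545 for progenitor genes, -0.13 for the cell cycle, -0.24 for alpha cells and 0.27 for ductal cells. With a mean of 1 FPKM they were 0.10 for neuropeptides and as before for progenitor genes (0.0545), the cell cycle (-0.13), alpha (-0.24) and ductal cells (0.27). With a floor of 10 FPKM they were 0.43 for hypoxia, -0.0779 for lactogen signalling, 0.0779 for neuropeptides and 0.59 for delta, PP and epsilon cells. With no floor they were 0.0473 for neuropeptides, -0.0421 for progenitor genes, 0.0361 for immediate early genes, -0.075 for the cell cycle, -0.0655 for alpha cells, -0.0814 for delta, PP and epsilon cells and 0.13 for ductal cells. No paired analysis was possible because each group has 1 library and no replicate numbers.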

Other observations

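Hormone genes of other islet cells and growth genes are given here as values. Sst, the somatostatin gene of delta cells, was at 99.7 FPKM in multiparous and 124 in nulliparous IKO cells, with 172 in multiparous WT and 187 to 549 in the other nulliparous libraries. Ppy, the hormone gene of PP cells, was at 361 against 239 and 219 to 989.7 in the 4 others, and Pyy at 302 against 192 and 231 to 545. The 3 hormones were highest of 6 in nulliparous 12-month WT. Ccnd1, a cyclin of early cell cycle entry, was at 13.8 against 17.2 FPKM, 11.3 in multiparous WT, 15.03 in nulliparous 12-month WT and 29.5 to 34.4 at 3 months, so that the young libraries were above all older ones and the multiparous libraries lowest.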
